A study of Mus musculus with 22 samples.

Results

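Transcripts of 39 microglial genes were followed in mouse spinal cord: 18 that mark the surveying, homeostatic state of microglia and 21 that mark their activation or their lysosomal and lipid-handling response. The members were chosen by gene symbol, and all 39 were found among the 38924 gene IDs of the files. All 18 homeostatic members and 18 of the 21 activation members had enough counts to be tested among 16974 genes. Cst7, Ccl3 and Ccl4 did not.

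Bulk messenger RNA was sequenced from the spinal cord of mice aged 7 months on a mixed B6N;B6J background. The mice carried no mutant copy (wild type, WT, 6 libraries), 1 copy (HET, E196K/+, 6 libraries) or 2 copies (HOM, E196K/E196K, 10 libraries) of an E196K allele of Yars, which encodes tyrosyl-tRNA synthetase. The comparisons ask how cord transcripts differ between these genotypes. The labels name no treatment and no driver that would limit the allele to a cell type. They also do not say that each library came from a separate animal, so p-values here measure only library-to-library spread, which may be technical. All 9 spinal cord markers, among them Chat and Hoxc8, had enough counts to be tested. Library totals ran from 24.45 M to 42.81 M expected counts, and replicate numbers follow deposition order.

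Microglia are the resident phagocytes of the central nervous system. In the healthy cord they depend on signalling through the receptor Csf1r, sense extracellular nucleotides through P2ry12 and neuronal fractalkine through Cx3cr1, and make most of the local complement C1q. Near damaged neurons or myelin they are known to lower several of these genes and, through the lipid receptor Trem2 and its adaptor Tyrobp, to raise genes such as Apoe, Itgax, Clec7a, Cst7, Gpnmb and Lpl. Several activation members are not specific to microglia: Apoe, Cd9, Cd63, Ctsb, Ctsd, Lpl and Fabp5 are also made by astrocytes, oligodendrocytes, neurons or endothelium, and Lyz2, Cybb and Ccl6 are abundant in neutrophils, monocytes and other macrophages. In bulk tissue, fewer microglia and less RNA per microglial cell cannot be told apart.

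A single library stood apart. HOM 3, the third HOM library in deposition order, had high levels of genes of neutrophils, Schwann cells and fibroblasts. HOM results of members that it moves are therefore given with and without it, while fold changes of other genes include it. The sequence before the start of 6 members is shown, to let a reader see the genes that differed most in that library: P2ry13, Trem2 and Siglech, with the lowest levels in HOM 3 relative to the other HOM libraries among homeostatic members, and Cybb, Lyz2 and Ccl6, with the highest among activation members. Only members with a single RefSeq window that lies largely outside annotated exons could be shown, so P2ry12, Tmem119, Gpr34, Cx3cr1, Sall1, Csf1r and Clec7a, which would have come before some of these, were passed over. The sequences are RefSeq GRCm38.p6, written 5′ to 3′ in the direction of the gene, and cover the 250 bases before the start, less 49 bases in exons for Lyz2 and 6 for Siglech. Capitals mark GAGGAA, a core sequence that the myeloid factor PU.1 is known to bind, and CACGTG, the E-box, each on either strand.
P2ry13 (chr3:59210883-59211132, minus strand): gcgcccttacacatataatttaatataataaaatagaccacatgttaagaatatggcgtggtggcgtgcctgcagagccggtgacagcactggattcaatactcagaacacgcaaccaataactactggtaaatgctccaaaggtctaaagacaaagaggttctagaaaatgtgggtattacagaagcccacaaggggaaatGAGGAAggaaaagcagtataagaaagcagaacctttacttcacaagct
Trem2 (chr17:48346151-48346400, plus strand): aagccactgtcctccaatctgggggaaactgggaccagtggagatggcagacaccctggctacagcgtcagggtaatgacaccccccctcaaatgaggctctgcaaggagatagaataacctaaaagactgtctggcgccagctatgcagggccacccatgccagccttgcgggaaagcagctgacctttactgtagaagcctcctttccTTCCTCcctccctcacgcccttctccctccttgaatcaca
Siglech (chr7:55767934-55768177, plus strand): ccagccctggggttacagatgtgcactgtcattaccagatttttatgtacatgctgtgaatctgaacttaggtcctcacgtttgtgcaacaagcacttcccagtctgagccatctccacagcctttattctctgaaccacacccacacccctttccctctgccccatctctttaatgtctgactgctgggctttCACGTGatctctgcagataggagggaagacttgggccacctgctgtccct
Cybb (chrX:9469325-9469574, minus strand): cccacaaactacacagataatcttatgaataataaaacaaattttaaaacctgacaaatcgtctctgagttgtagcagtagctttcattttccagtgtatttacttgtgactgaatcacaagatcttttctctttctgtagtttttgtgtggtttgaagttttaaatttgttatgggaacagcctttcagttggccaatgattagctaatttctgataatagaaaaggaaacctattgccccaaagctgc
Lyz2 (chr10:117282322-117282522, minus strand): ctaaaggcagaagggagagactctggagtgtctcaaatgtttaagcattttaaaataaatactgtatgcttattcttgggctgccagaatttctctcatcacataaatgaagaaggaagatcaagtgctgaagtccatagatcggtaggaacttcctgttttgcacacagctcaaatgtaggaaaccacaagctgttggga
Ccl6 (chr11:83593088-83593337, minus strand): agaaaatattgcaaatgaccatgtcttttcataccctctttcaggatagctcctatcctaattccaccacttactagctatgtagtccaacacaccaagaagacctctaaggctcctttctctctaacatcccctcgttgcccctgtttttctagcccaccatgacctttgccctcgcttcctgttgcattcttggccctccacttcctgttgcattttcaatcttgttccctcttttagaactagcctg

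GAGGAA was found once in each of the P2ry13 and Trem2 windows, 48 and 40 bases before the start, and CACGTG once in that of Siglech, 56 bases before it. The other 3 windows shown held neither. These 6 do not stand for the rest: of the 9 homeostatic members lowest in HOM 3, 6 had a window and 3 of these held GAGGAA (Ctss, P2ry13 and Trem2), and of the 11 activation members highest there, 10 had a window and 3 held it (Axl, Cd63 and Clec7a). RefSeq windows were at hand for 29 of the 39 members. Counted by gene, with any of its windows, 8 of 13 homeostatic genes (61.5%; Aif1, C1qb, C1qc, Ctss, Fcrls, P2ry13, Tgfbr1 and Trem2) and 6 of 16 activation genes (37.5%; Apoe, Axl, Ccl3, Cd63, Cd68 and Clec7a) held GAGGAA, beside 25.9% of 27025 genes. CACGTG was in 2 of the 13 (15.4%; P2ry12 and Siglech) and 1 of the 16 (6.25%; Ctsd), beside 6.86% of the 27025. The motifs and the genes shown were chosen after values were seen, and a match is a description of the sequence that was not linked to binding here.

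Levels per transcript length (TPM, which scales counts by length and library total; mean of 6 WT libraries) show how the members compare in the healthy cord. The most abundant was Apoe, the lipid carrier, at 3165 TPM, followed by Ctsd and Ctsb, lysosomal proteases, at 331 and 239, Fabp5, a fatty acid carrier, at 219, and Cd63, a tetraspanin of late endosomes, at 162. These 5 are all activation members that other cord cells also make. The most abundant homeostatic members were Ctss, a protease of phagocytes, at 120 TPM, and the complement subunits C1qa, C1qb and C1qc at 77.1, 58.6 and 54.1. Csf1r stood at 43.6 TPM, Cx3cr1 at 24.9, P2ry12 at 17.97, Trem2 at 15.6 and Tmem119, a microglial surface protein, at 14.5. Clec7a (1.18), Gpnmb (1.09), Cybb (0.908), Cst7 (0.643) and Itgax (0.243) were near the bottom, so these activation members were rare in these cords. Apoe and Lpl (4.91), also named above as raised in activation, were more abundant. The SDs of neighbours overlapped at several places in this order, among them C1qb (SD 3.18) with C1qc (SD 3.68) and P2ry12 (SD 1.79) with Sall1 (18.5 TPM, SD 2.15).

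No homeostatic member passed the test between HOM and WT cords. Of the 18, 7 were higher and 11 lower in HOM, with a median log2 fold change of -0.01 and a range from -0.19 to 0.08. None was called at an adjusted p below 0.05 (edgeR quasi-likelihood, Benjamini-Hochberg over 16974 genes), against 16 called genes or 0.0943% overall. At an unadjusted p below 0.05, 1 of the 18 was lower, against 5.91% of all genes in either direction. Over all genes 53.7% were higher and 46.3% lower in HOM, with a median of 0.01.

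Activation members were higher in 13 of 18 and lower in 5, with a median of 0.05 and a range from -0.16 to 1.36. None was called, and none had an unadjusted p below 0.05. The 7 members listed as also made by other cord cells had a median of 0.00. The 11 tested members listed as made largely by myeloid cells had a median of 0.11, with HOM 3 included. This division by cell source was assumed, not measured here. As log2 levels averaged over members, the 11 stood at 0.12 relative to the WT mean in HOM and at -0.03 without HOM 3. The 7 stood at 0.01 and -0.02. Without HOM 3 the 2 groups of genes had nearly the same median: 0.01 for the homeostatic members (10 higher, 8 lower; range -0.15 to 0.08) and 0.01 for the activation members (11 higher, 7 lower; range -0.39 to 0.23). Over all genes 51.2% were then higher and 48.8% lower, 0.0944% were called and 6.48% had an unadjusted p below 0.05. None of the 36 tested members was called, and none had an unadjusted p below 0.05.

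**Figure D1:**
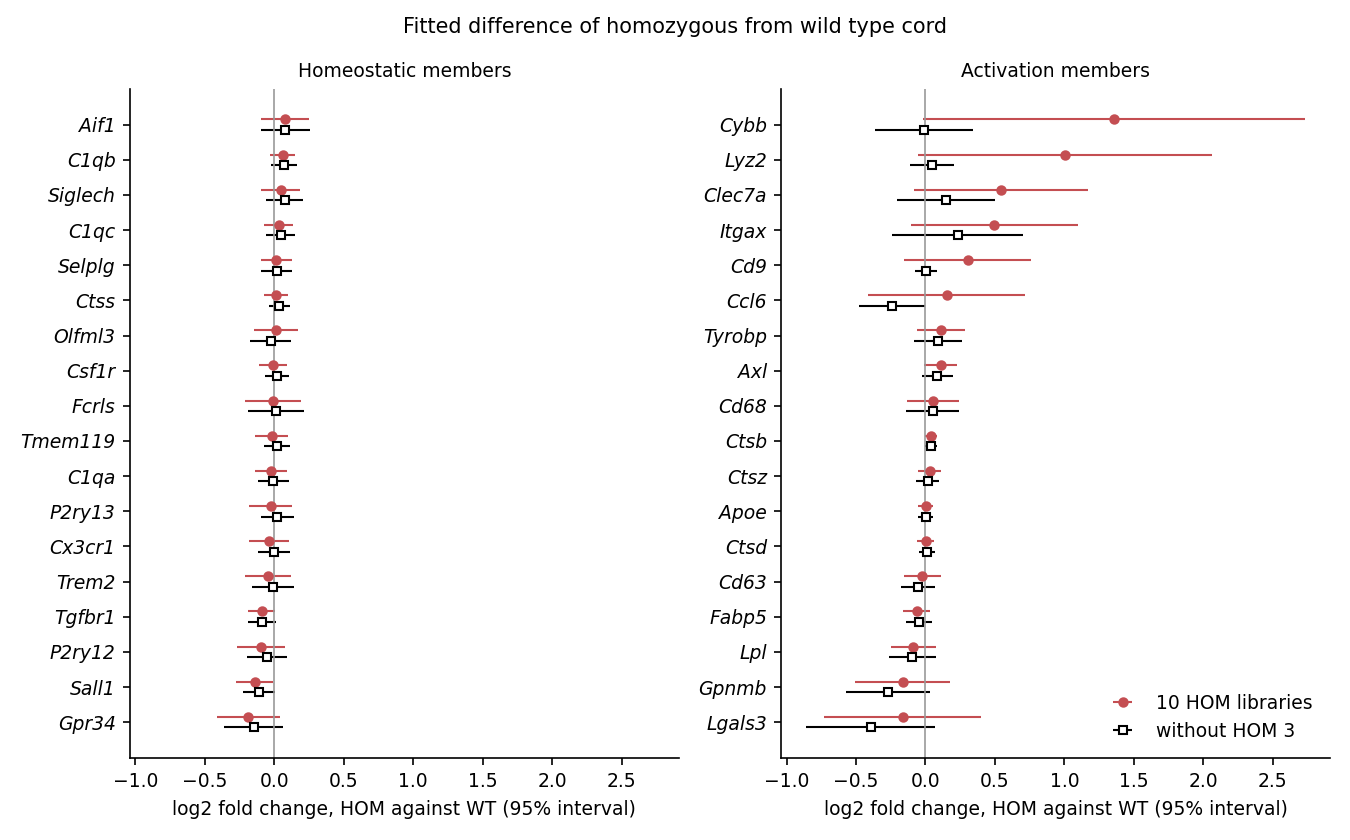
Fitted log2 fold change of HOM against WT with its 95% interval for the 36 tested members, with all 10 HOM libraries (filled circles) and without HOM 3 (open squares). Homeostatic members lie between -0.19 and 0.08, and the long intervals on the right, led by Cybb at 1.36 and Lyz2 at 1.00, shorten without HOM 3, where these 2 genes stand at -0.01 and 0.04.

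The intervals show roughly what size of difference these data leave room for. They were formed from the SE with a normal approximation, so they are somewhat narrower than the p-values imply. In HOM against WT, the 95% interval lay within a 1.3-fold change in either direction for 17 of the 18 homeostatic members, Gpr34 being the exception. The same held for 10 of the 18 activation members. The other 8 were Ccl6, Cd9, Clec7a, Cybb, Gpnmb, Itgax, Lgals3 and Lyz2. Without HOM 3 the intervals of Gpr34, Cd9, Lyz2 and Cybb also lay within 1.3-fold. On the log2 scale they were -0.36 to 0.07, -0.08 to 0.08, -0.11 to 0.20 and -0.36 to 0.34 in that order. Those of Ccl6, Clec7a, Gpnmb, Itgax and Lgals3 still did not.

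Among receptors of the homeostatic state, P2ry12, the ADP receptor that steers microglial processes, ranged from 16.4 to 22.9 CPM in WT (median 19.9), from 16.1 to 22.1 in HET (median 19.99) and from 13.5 to 22.04 in HOM (median 19.1). CPM are counts scaled by the normalised library total. The 3 ranges overlapped, and only HOM 3 lay below all WT and HET libraries. The log2 fold change in HOM against WT was -0.10 (SE 0.0867, adjusted p = 0.831) and -0.05 without HOM 3 (adjusted p = 0.898).

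Cx3cr1, the fractalkine receptor, ranged from 42.1 to 49.6 CPM in WT (median 46.5), from 41.1 to 51.6 in HET (median 47.7) and from 34.5 to 53.9 in HOM (median 44.4). HOM libraries lay on both sides of the WT range. HOM against WT gave a fold change of -0.04 (SE 0.0727, adjusted p = 0.919) and 0.00 without HOM 3. Its ligand Cx3cl1, made by neurons, stood at a mean of 210 CPM in WT (SD 7.23), 212 in HET (SD 10.2) and 215 in HOM (SD 7.48), a fold change of 0.04 in HOM against WT (SE 0.0304, adjusted p = 0.827).

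Csf1r, the receptor that microglia need to survive, ranged from 86.5 to 103 CPM in WT (median 93.4), from 87.3 to 106 in HET (median 96.2) and from 77.2 to 102 in HOM (median 95.1). The ranges overlapped, with HOM 3 and HOM 2 (85.2 CPM) below every WT and HET library and HET 2 above every WT and HOM library. HOM differed from WT by -0.01 on the log2 scale (SE 0.0513, adjusted p = 0.984) and 0.02 without HOM 3. Csf1r has 2 ligands: Csf1 had a fold change of -0.04 (SE 0.0617, adjusted p = 0.914) and Il34 one of 0.12 (SE 0.0732, adjusted p = 0.815). HOM 3 held the lowest Csf1 level of the 22 libraries, 40.5 CPM, and the highest Il34 level, 18.7 CPM against at most 13.6 elsewhere.

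Tmem119 ranged from 15.6 to 18.1 CPM in WT (median 16.5), from 15.5 to 18.5 in HET (median 17.5) and from 12.5 to 18.9 in HOM (median 16.7). The groups overlapped, with HOM 3 again the lowest. Between HOM and WT the fold change was -0.02 (SE 0.0623, adjusted p = 0.957) and 0.02 without HOM 3.

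Sall1, a transcription factor of microglial identity, had the smallest p of the homeostatic members in HOM against WT. It ranged from 45.1 to 62.1 CPM in WT (median 54.1), from 51.4 to 58.7 in HET (median 57.2) and from 39.6 to 55.9 in HOM (median 50.4). HOM tended to the low side, and its range overlapped both others. The fold change in HOM against WT was -0.14 (SE 0.0663, unadjusted p = 0.0428, adjusted p = 0.815) and -0.11 without HOM 3 (adjusted p = 0.780).

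Tgfbr1, a receptor for the TGF-beta signal that maintains the homeostatic state, came next. It ranged from 32.9 to 40.8 CPM in WT (median 34.9), from 32.1 to 41.2 in HET (median 34.8) and from 31.3 to 35.1 in HOM (median 33.3), a fold change in HOM against WT of -0.09 (SE 0.0485, adjusted p = 0.815). No HOM library reached the upper part of the WT and HET ranges, and HOM 4 and HOM 5, at 31.3 and 31.4 CPM, lay below every WT and HET library. Of its ligands, Tgfb1 had a fold change of 0.13 (SE 0.108, adjusted p = 0.825) and Tgfb2 one of -0.12 (SE 0.0772, adjusted p = 0.817). HOM 3, included here, held the highest Tgfb1 level of the 22 libraries, 8.99 TPM against at most 6.34 elsewhere. Gpr34, a lysophospholipid receptor, ranged from 6.89 to 12.1 CPM in WT (median 8.73), from 6.11 to 9.57 in HET (median 8.89) and from 5.93 to 9.17 in HOM (median 8.09). Its groups overlapped, and its fold change of -0.19 in HOM against WT was the lowest of the list (SE 0.114, adjusted p = 0.815). Without HOM 3 the values were -0.09 for Tgfbr1 (adjusted p = 0.795) and -0.15 for Gpr34 (adjusted p = 0.811).

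The C1q subunits, which start the classical complement cascade, lie next to each other on chromosome 4 (GRCm38, GENCODE M21, minus strand: C1qb at chr4:136880129-136886187, C1qc at chr4:136889804-136893065 and C1qa at chr4:136895917-136898803). C1qa ranged from 33.1 to 38.7 CPM in WT (median 35.5), from 29.9 to 39.8 in HET (median 34.9) and from 31.5 to 41.5 in HOM (median 34.5). C1qb ranged from 27.8 to 30.7 in WT (median 28.2), from 26.3 to 32.0 in HET (median 29.1) and from 27.2 to 32.6 in HOM (median 29.6). C1qc ranged from 27.4 to 31.6 in WT (median 30.5), from 28.7 to 33.4 in HET (median 30.5) and from 26.8 to 34.9 in HOM (median 30.0). The HET and HOM ranges reached beyond WT on both sides for C1qa and C1qb. For C1qc the HOM range did so, and the HET range only at its upper end.

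The HOM against WT fold changes were -0.02 for C1qa (SE 0.0590, adjusted p = 0.946), 0.06 for C1qb (SE 0.0466, adjusted p = 0.821) and 0.03 for C1qc (SE 0.0544, adjusted p = 0.914). The TPM ratio of C1qb to C1qa averaged 0.761 in WT (SD 0.0366), 0.786 in HET (SD 0.0433) and 0.807 in HOM (SD 0.0449). Its ranges overlapped, at 0.714 to 0.814, 0.743 to 0.846 and 0.731 to 0.862 in the same order. The ratio of C1qc to C1qa averaged 0.701 (SD 0.0247), 0.727 (SD 0.0425) and 0.727 (SD 0.0386). Differences in these ratios were not tested.

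Trem2, the lipid receptor that gates the activated state, ranged from 7.83 to 9.41 CPM in WT (median 8.78), from 8.00 to 10.4 in HET (median 9.34) and from 6.48 to 9.93 in HOM (median 8.74). Its adaptor Tyrobp ranged from 7.35 to 9.61 CPM in WT (median 8.45), from 6.92 to 10.0 in HET (median 8.69) and from 6.81 to 10.2 in HOM (median 9.48). The genotype ranges overlapped for both genes. In HOM against WT the fold change was -0.04 for Trem2 (SE 0.0848, adjusted p = 0.922) and 0.11 for Tyrobp (SE 0.0877, adjusted p = 0.821), and without HOM 3 it was -0.01 (adjusted p = 0.992) and 0.09 (adjusted p = 0.851). HOM 3 had the lowest Trem2 and the highest Tyrobp of all 22 libraries, so its TPM ratio of the receptor to the adaptor, 0.192, was the lowest of the 22, against group means of 0.337 in WT (SD 0.0281), 0.381 in HET (SD 0.0721) and 0.309 in HOM (SD 0.0463).

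**Figure D2:**
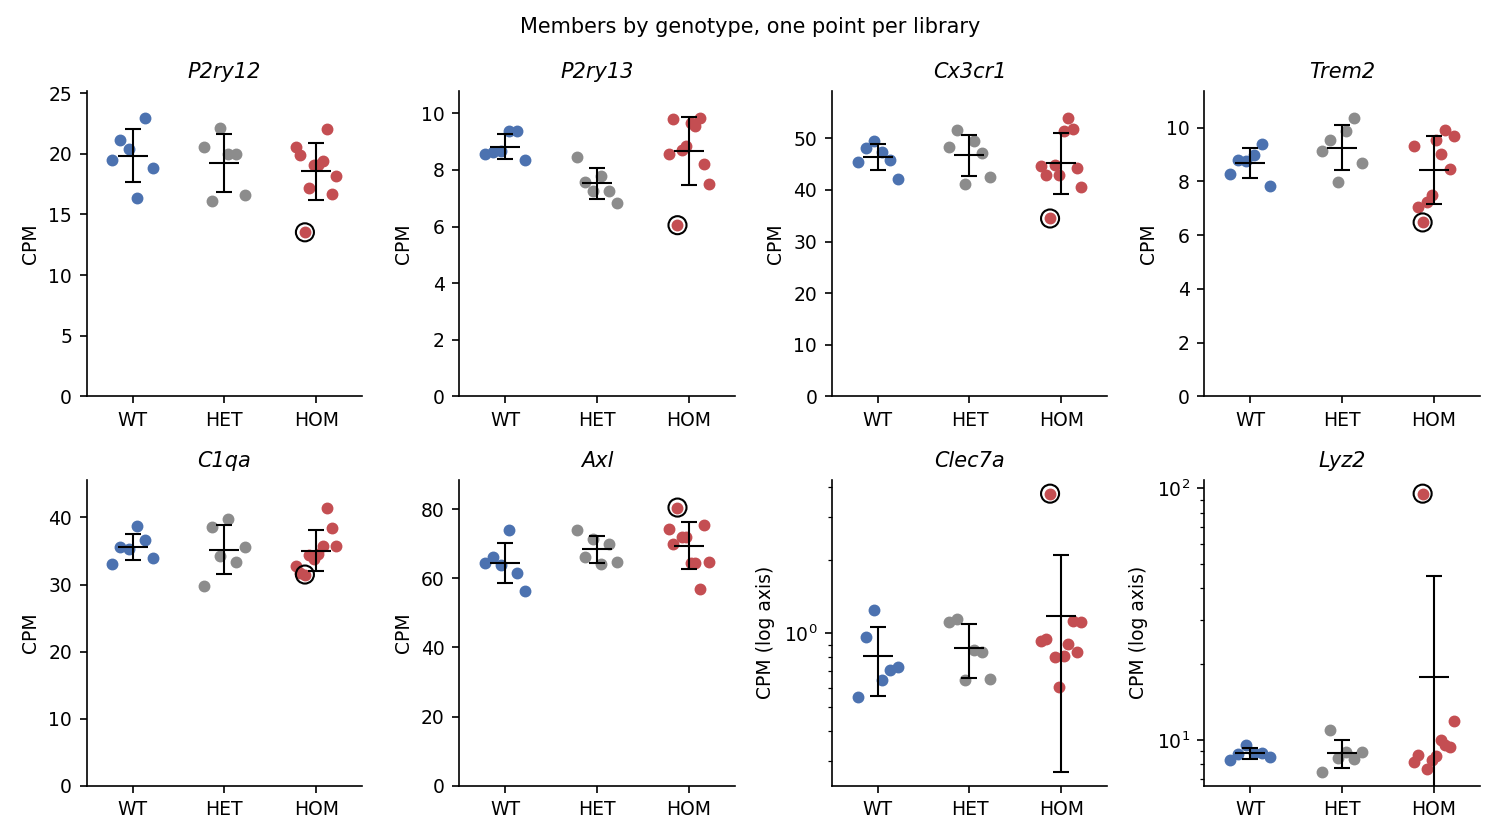
CPM of 8 members, 1 point per library, with the group mean and SD as lines and HOM 3 circled; the Clec7a and Lyz2 panels have a log axis, on which the lower end of the HOM bar for Lyz2 runs off the panel. The genotypes overlap in every panel, and HOM 3 is the lowest library for P2ry12, P2ry13, Cx3cr1 and Trem2 and the highest for Axl, Clec7a and Lyz2.

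Apoe, the most abundant activation member, ranged from 1115 to 1243 CPM in WT (median 1171), from 1160 to 1268 in HET (median 1194) and from 1124 to 1235 in HOM (median 1161). HOM libraries lay within the WT range. HOM differed from WT by 0.00 (SE 0.0275, adjusted p = 0.987), with a 95% interval from -0.05 to 0.06.

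Axl, a receptor for Gas6 and protein S on phagocytes, ranged from 56.3 to 73.8 CPM in WT (median 64.1), from 64.0 to 73.9 in HET (median 68.0) and from 57.0 to 80.4 in HOM (median 70.9). Of the HOM libraries, HOM 3, HOM 9 and HOM 1 lay above the highest WT library, at 80.4, 75.3 and 74.3 CPM. The fold change in HOM against WT was 0.11 (SE 0.0608, adjusted p = 0.815) and 0.08 without HOM 3 (adjusted p = 0.804). The ligands Gas6 and Pros1 had fold changes of 0.01 (SE 0.0403, adjusted p = 0.951) and -0.03 (SE 0.0429, adjusted p = 0.907).

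Some members typical of activated microglia stood at the edge of detection. Itgax, an integrin, ranged from 0.429 to 0.667 CPM in WT (median 0.581), from 0.209 to 0.916 in HET (median 0.619) and from 0.387 to 1.98 in HOM (median 0.658). Clec7a, a receptor for fungal glucans, ranged from 0.549 to 1.245 CPM in WT (median 0.721), from 0.648 to 1.146 in HET (median 0.847) and from 0.606 to 3.74 in HOM (median 0.915). Both were highest in HOM 3, and the other 9 HOM libraries reached 1.13 CPM for each gene. The fold changes of 0.50 (SE 0.307) and 0.54 (SE 0.320), both with an adjusted p of 0.815, became 0.23 (SE 0.241, adjusted p = 0.860) and 0.15 (SE 0.179, adjusted p = 0.880) without HOM 3. GENCODE M21 annotates Clec7a as a polymorphic pseudogene, a gene that is intact in some strains.

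Cst7, which encodes the protease inhibitor cystatin F, had 4 to 23 counts per library and ranged from 0.123 to 0.529 CPM in WT (median 0.262), from 0.163 to 0.381 in HET (median 0.289) and from 0.119 to 0.383 in HOM (median 0.241). Its HOM range lay inside that of WT but for HOM 2 at 0.119 CPM, and HOM 3 stood at 0.152. The chemokines Ccl3 and Ccl4 had at most 12 and 9 counts in any library. The count filter left these 3 genes out of the test.

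Gpnmb, a glycoprotein of lysosome-rich phagocytes, ranged from 1.497 to 2.81 CPM in WT (median 2.39), from 1.198 to 3.49 in HET (median 2.13) and from 1.64 to 3.28 in HOM (median 1.91). Its highest value was in HET 4, not in HOM 3. The fold change in HOM against WT was -0.16 (SE 0.174, adjusted p = 0.858) and -0.27 without HOM 3 (SE 0.155, adjusted p = 0.795).

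Lyz2, a lysozyme, ranged from 8.33 to 9.59 CPM in WT (median 8.86), from 7.48 to 10.9 in HET (median 8.70) and from 7.69 to 95.2 in HOM (median 9.01). Cybb, the catalytic subunit of the phagocyte NADPH oxidase, ranged from 0.643 to 0.966 in WT (median 0.821), from 0.314 to 0.974 in HET (median 0.615) and from 0.548 to 13.7 in HOM (median 0.899). In both genes 1 library, HOM 3, set the high end, and the next HOM libraries stood at 11.9 and 1.05 CPM. The fold change in HOM against WT was 1.00 for Lyz2 (SE 0.539) and 1.36 for Cybb (SE 0.701), both with an adjusted p of 0.815. Without HOM 3 they were 0.04 (SE 0.0813, adjusted p = 0.923) and -0.01 (SE 0.181, adjusted p = 0.996). The near-identical Lyz1, which could share reads with Lyz2, had at most 7 counts in any library.

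The remaining 6 homeostatic members were Aif1, Siglech and Fcrls, a sialic acid receptor and an Fc receptor-like protein of microglia, Olfml3, a secreted matrix protein, Selplg, a ligand of selectins, and Ctss. Their fold changes in HOM against WT lay between -0.01 and 0.08. Of the 10 remaining tested activation members, 6 were higher in HOM (Cd9, Ccl6, Cd68, Ctsb, Ctsz and Ctsd) and 4 lower (Lgals3, Lpl, Fabp5 and Cd63), with adjusted p-values of 0.815 or above.

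Cd9 ranged from 42.3 to 50.7 CPM in WT (median 49.4), from 49.6 to 52.8 in HET (median 50.5) and from 43.1 to 160 in HOM (median 48.4). The other 9 HOM libraries reached 52.2 CPM, and the fold change in HOM against WT of 0.30 (SE 0.234, adjusted p = 0.821) was 0.00 without HOM 3 (SE 0.0405). Ccl6 ranged from 1.38 to 2.17 CPM in WT (median 2.00), from 1.60 to 2.29 in HET (median 2.01) and from 1.33 to 6.54 in HOM (median 1.60). The other 9 HOM libraries reached 2.09 CPM. Its fold change of 0.15 (SE 0.288, adjusted p = 0.920) turned to -0.24 without HOM 3 (SE 0.121, adjusted p = 0.769).

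Lgals3 ranged from 1.56 to 4.46 CPM in WT (median 2.81), from 2.55 to 4.26 in HET (median 3.08) and from 1.31 to 5.96 in HOM (median 2.21). It was the most variable of the tested activation members in WT, and its fold change of -0.16 (SE 0.287, adjusted p = 0.914) was -0.39 without HOM 3 (SE 0.237, adjusted p = 0.8001).

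In HET cords no member passed the test either. Of the homeostatic members 11 were higher and 7 lower in HET against WT (median 0.03), and of the activation members 16 were higher and 2 lower (median 0.04), against 51.9% higher and a median of 0.00 over all genes. No member was called, nor was any of the 16974 genes (0%; 578 genes or 3.41% had an unadjusted p below 0.05). DESeq2 called 0 as well. P2ry13, another ADP receptor, which lies beside P2ry12 on chromosome 3, was the only member with an unadjusted p below 0.05.

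P2ry13 ranged from 8.36 to 9.38 CPM in WT (median 8.64), from 6.85 to 8.44 in HET (median 7.42) and from 6.05 to 9.83 in HOM (median 8.76). Of the 6 HET libraries 5 lay below every WT library, and HET 1 overlapped with WT 6. The fold change in HET against WT was -0.23 (SE 0.0889, unadjusted p = 0.0174, adjusted p = 1). P2ry12, beside it, had a fold change of -0.05 (SE 0.0972, adjusted p = 1), and the difference between the 2 genes was not tested. P2ry13 (chr3:59207892-59210882) and P2ry12 (chr3:59216272-59262871), both on the minus strand in GRCm38, overlap Med12l on the other strand, so reads of Med12l could enter their counts if strand was not used. The same holds for Csf1r, Cx3cr1, Gpr34, Ctsb and Ctsz, which also overlap a coding gene on the other strand.

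Trem2 and Aif1, a calcium-binding protein of microglia, had the next smallest p-values among the homeostatic members in HET against WT, with fold changes of 0.09 (SE 0.0947) and 0.09 (SE 0.0992). Aif1 ranged from 3.14 to 3.48 CPM in WT (median 3.43), from 3.02 to 4.44 in HET (median 3.51) and from 2.65 to 4.44 in HOM (median 3.53). Its HET and HOM libraries spread to both sides of the tight WT range. Among the activation members Axl (0.09, SE 0.0679), Apoe (0.04, SE 0.0308) and Cd63 (0.07, SE 0.0760) came first in the fit of all 22 libraries. In the fit without HOM 3, Cd9 (0.08, SE 0.0443) and Cybb (-0.37, SE 0.206) came before them, both with an adjusted p of 1. Cd63 ranged from 50.1 to 70.3 CPM in WT (median 60.1), from 60.4 to 69.0 in HET (median 63.6) and from 48.5 to 71.7 in HOM (median 60.2), with the HET range inside both others.

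Against HET, HOM cords had 5 homeostatic members higher and 13 lower (median -0.03), and 10 activation members higher and 8 lower (median 0.02), where 53% of all genes were higher and 47% lower. This comparison shares its HOM and HET libraries with those above, which also share the WT libraries. No member was called, against 18 genes or 0.106% overall. At an unadjusted p below 0.05 there were 4 members, Sall1, P2ry13, Cybb and Fabp5, or 4 of 36, beside 8.8% of all genes. Sall1 had a fold change of -0.18 (SE 0.0663, adjusted p = 0.413), P2ry13 of 0.20 (SE 0.0801, adjusted p = 0.465), Tgfbr1 of -0.09 (SE 0.0486, adjusted p = 0.616), Cybb of 1.73 (SE 0.731, adjusted p = 0.513), Fabp5 of -0.11 (SE 0.0492, adjusted p = 0.527) and Lyz2 of 1.00 (SE 0.540, adjusted p = 0.616).

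Without HOM 3 the Cybb difference between HOM and HET was 0.36 (SE 0.190, adjusted p = 0.601) and that of Lyz2 0.04. P2ry13, which HOM 3 had at its lowest, went to 0.25 (SE 0.0615, unadjusted p = 0.000444, adjusted p = 0.110), the smallest adjusted p of any member in this comparison. With the title prefix as a covariate as well, its adjusted p was 0.695. Fabp5 ranged from 85.3 to 105 CPM in WT (median 98.3), from 94.1 to 108 in HET (median 100.3) and from 84.0 to 106 in HOM (median 92.2). All 3 ranges overlapped, and without HOM 3 the Fabp5 difference was -0.09 (adjusted p = 0.578). Without HOM 3, 6 homeostatic members were higher and 12 lower (median -0.01) and 7 activation members higher and 11 lower (median -0.02), against 50.5% of all genes higher and 49.5% lower. None was called, against 0.136% of all genes, and 5 of the 36 had an unadjusted p below 0.05, against 8.85%.

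In HOM 3 the 2 gene groups stood apart. There 17 of the 18 homeostatic members were below the mean of the other 9 HOM libraries, with a median ratio of 0.826, from 0.676 for P2ry13 to 1.252 for Olfml3. For 9 of them HOM 3 was the lowest of the 22 libraries: P2ry12, P2ry13, Tmem119, Cx3cr1, Sall1, Csf1r, Gpr34, Trem2 and Ctss. Of the 21 activation members 11 were at their highest there and 2, Ctsd and Fabp5, at their lowest. Among all 16974 tested genes HOM 3 was the highest library for 17.1% and the lowest for 12.3%, with a median ratio of 0.9985.

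**Figure D3:**
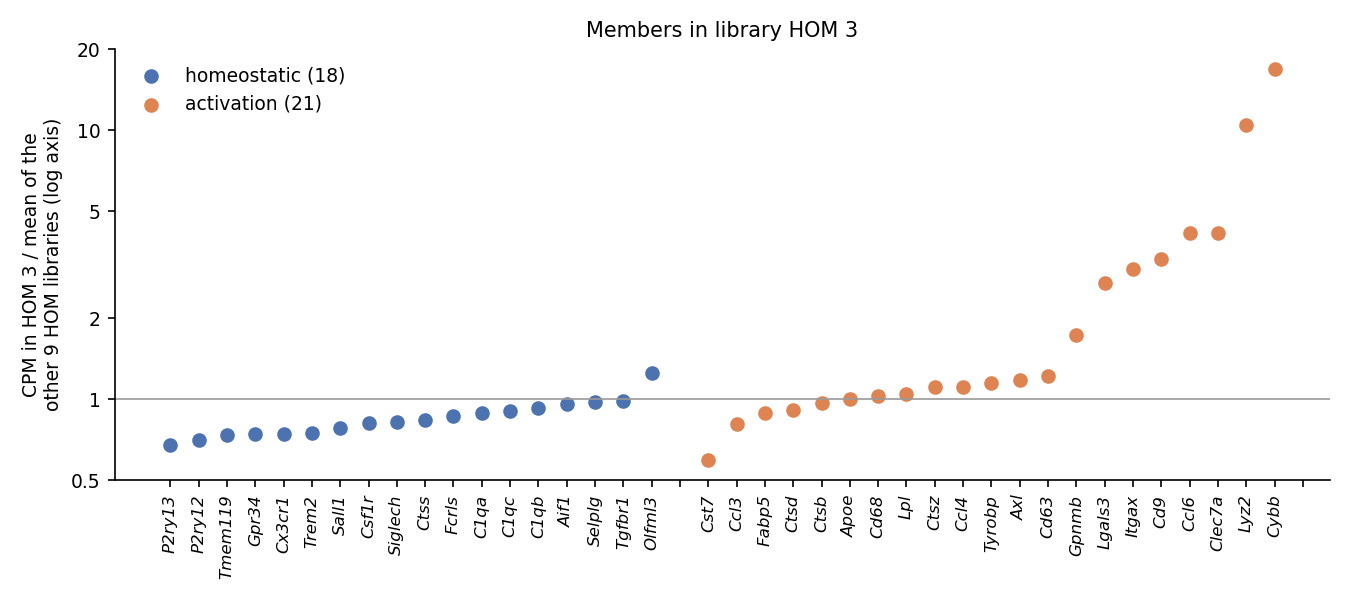
CPM in HOM 3 divided by the mean of the other 9 HOM libraries for each of the 39 members, on a log axis, with equality as a line. Homeostatic members lie below 1 except Olfml3 at 1.252, while activation members run from 0.595 for Cst7 to 16.9 for Cybb.

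The ratios in HOM 3 were uneven among activation members. The 11 tested members listed as made largely by myeloid cells were all above the mean of the other HOM libraries (median ratio 2.71). The 7 listed as also made by other cord cells had a median ratio of 0.9988. Cybb was 16.9 times, Lyz2 10.4 times, Clec7a 4.16 times, Ccl6 4.14 times, Itgax 3.06 times and Lgals3 2.71 times the mean of the other 9. Cd9, a tetraspanin that Schwann cells also make, stood at 160 CPM against at most 52.8 elsewhere, while Tyrobp was at 1.14, Cd68 at 1.03, Apoe at 0.9988 and Cst7 at 0.595 times the mean of the other HOM libraries. Lgals3 is a galectin of phagocytes and Ccl6 a chemokine of myeloid cells.

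**Figure D4:**
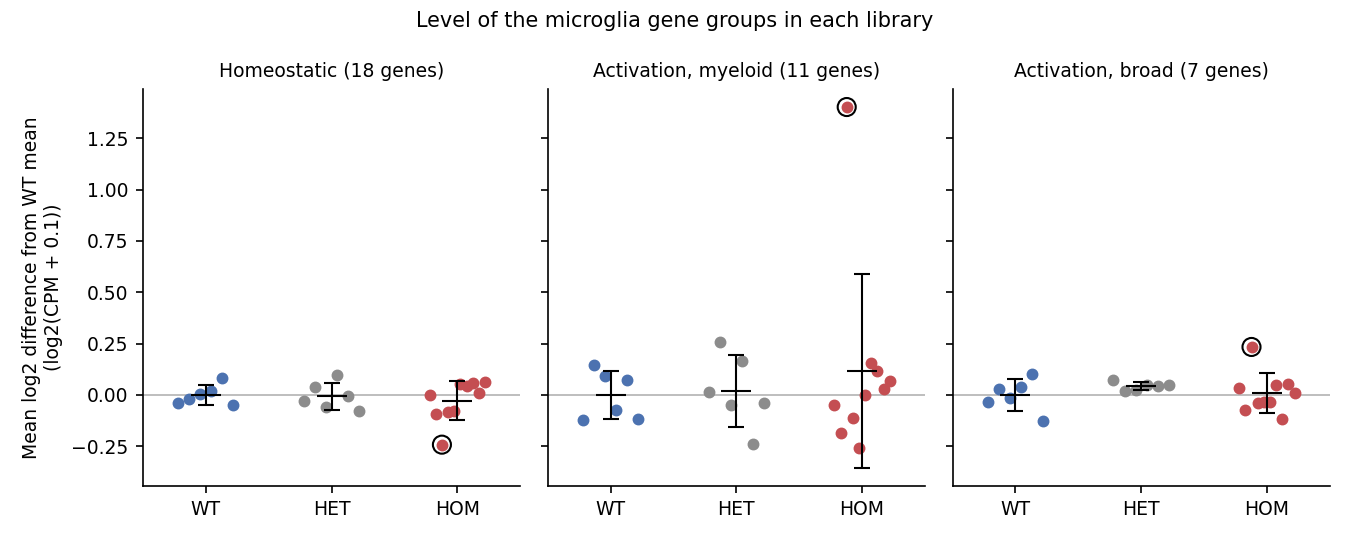
Mean log2 difference from the WT mean, on log2(CPM + 0.1), of the homeostatic members, the 11 tested activation members made largely by myeloid cells, and the 7 also made by other cord cells (broad), 1 point per library with group mean and SD and HOM 3 circled. HOM 3 is at -0.24, 1.402 and 0.23, while the other libraries of the 3 genotypes overlap in each panel.

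On a log2 scale averaged over members, the homeostatic list stood at -0.24 relative to the WT mean in HOM 3 and between -0.09 and 0.06 in the other 9 HOM libraries, against an SD of 0.0472 in WT. The activation list minus the homeostatic list was 1.19 in HOM 3. In the other HOM libraries it lay between -0.10 and 0.07, in WT between -0.07 and 0.12 and in HET between -0.13 and 0.13.

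Markers of other cells stood high in the same library. All 13 neutrophil and monocyte markers were at their highest there, and the summed level of the 6 that were tested was 334 CPM, against 7.78 to 22.8 in the other HOM libraries, 7.73 to 8.87 in WT and 6.01 to 14.3 in HET. The defining genes S100a8 and Ngp stood at 70.8 and 89.8 CPM there and at most 3.75 and 4.10 elsewhere, both in HOM 2, whose Lyz2 (8.68 CPM) and Cybb (0.981 CPM) lay within the range of the other libraries. The 10 markers of border macrophages were also all highest in HOM 3, with a sum over the 6 tested of 49.0 CPM against 16.0 to 21.8 in the other HOM libraries, 15.9 to 19.1 in WT and 16.2 to 21.7 in HET. The 8 tested Schwann cell markers summed to 3493 CPM against 131 to 141 in the other HOM libraries, and the 8 fibroblast markers to 551 CPM against 80.6 to 91.7. Astrocyte, neuron and oligodendrocyte markers had median ratios of 0.948, 0.883 and 0.709 to the other HOM libraries. Spinal cord markers had 0.762, with a range from 0.237 to 1.33 and 3 of the 9 above 1. The lowest of them was Hoxc8, at 8.42 CPM in HOM 3 against 31.9 to 50.8 elsewhere. Elane, a neutrophil elastase, had no count in 13 of the 22 libraries and the monocyte gene Ly6c2 none in 9, and neither was at 0 in HOM 3. No marker of these 7 cell types was called in any comparison of genotypes by edgeR. The part of these cells in the microglial values of HOM 3 was not tested.

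Of the 26 further microglial genes that are no members, 18 stood above the mean of the other HOM libraries in HOM 3, with a median ratio of 1.19 and a range from 0.666 to 2.99. Ptprc, the CD45 phosphatase of white blood cells, was at 14.5 CPM there against at most 5.89 elsewhere, and Spi1, which encodes PU.1, at 6.35 against at most 3.31. Laptm5, a lysosomal membrane protein of white blood cells, was at 35.5 CPM, within the 30.0 to 40.5 CPM of the other libraries. Across genotypes none of the 26 further microglia genes was called, with 17 higher and 9 lower in HOM against WT (median 0.02). In that comparison Slco2b1, an organic anion carrier, had 0.12 (SE 0.0574, adjusted p = 0.815) and Laptm5 0.08 (SE 0.0453, adjusted p = 0.815). In HET against WT, Laptm5 had 0.12 (SE 0.0505) and Inpp5d, a phosphatase of Trem2 signalling, -0.12 (SE 0.0601), both with an adjusted p of 1. Against HET, HOM had 0.15 for Inpp5d (SE 0.0540, adjusted p = 0.413) and 0.27 for Mertk, a phagocytic receptor (SE 0.124, adjusted p = 0.545). HOM 3 held the highest Mertk level, 19.13 TPM against at most 14.86 elsewhere, and the highest Slco2b1 level, 13 against at most 12.05.

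All 13 ligands and partners of member receptors were tested and none was called in any comparison, with 7 higher and 6 lower in HOM against WT (median 0.01).

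Of the 24 further activation genes 20 were tested and none was called, with 10 higher and 10 lower in HOM against WT (median 0.00). The smallest p of any gene on these lists belonged to Anxa5, a phosphatidylserine-binding annexin that many cell types make. Anxa5 ranged from 125 to 145 CPM in WT (median 138), from 132 to 148 in HET (median 138) and from 111 to 132 in HOM (median 122). Its HOM range overlapped WT and reached HET only at its upper end. Relative to WT its log2 level in HOM differed by -0.15 (SE 0.0402, adjusted p = 0.379). Relative to HET the difference was -0.18 (SE 0.0402, adjusted p = 0.0687). Anxa5 ran from 134.6 to 146.5 TPM in the 5 HOM libraries whose titles start with 39992, a number with no HET library. It ran from 149.9 to 167 TPM in the other HOM libraries. The single WT library with that number, WT 1, stood at 151.7 TPM. How much of the Anxa5 difference goes with title number was not tested. Grn, the lysosomal protein progranulin, came next against WT with 0.10 (SE 0.0410, adjusted p = 0.815). Its highest level was in HOM 3, 50.25 TPM against at most 44.93 elsewhere. Between HET and WT the first 2 were Tlr2, a receptor for microbial lipoproteins (-0.27, SE 0.122), and Mmp12, the macrophage elastase (-0.18, SE 0.0973), both with an adjusted p of 1. Fth1, the ferritin heavy chain, had -0.16 in HOM against HET (SE 0.0649, adjusted p = 0.474). Its lowest level was in HOM 3, 10150 TPM against at least 11200 elsewhere.

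The numbers that start the library titles, 39992, 40411 and 40412, are not explained in the labels, and each held a different mix of genotypes: 1 WT, 0 HET and 5 HOM libraries, then 2, 1 and 3, then 3, 5 and 2. Of the 9 spinal cord markers only Hoxc10 set 39992 apart from the other numbers. It ran from 51.4 to 63.7 TPM in those libraries, WT 1 included, and from 28.1 to 41.9 TPM in the others. The reason was not tested. The median homeostatic difference between HOM and WT was -0.08 within 39992 (4 of 18 members higher; -0.01 and 6 of 18 without HOM 3), 0.07 within 40411 (14 of 18) and 0.05 within 40412 (12 of 18). The direction of this small difference changed between title numbers. The activation median was 0.07, -0.02 and 0.04 in the same order, and the first turned to -0.01 without HOM 3. Both values within 39992 rest on a single WT library. For Sall1 the difference was lower in HOM within each of the 3, by -0.12 (-0.05 without HOM 3), -0.10 and -0.07. For P2ry13 the HET against WT difference was -0.29 within 40412 (5 HET and 3 WT libraries) and -0.03 within 40411 (1 HET and 2 WT libraries).

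**Figure D5:**
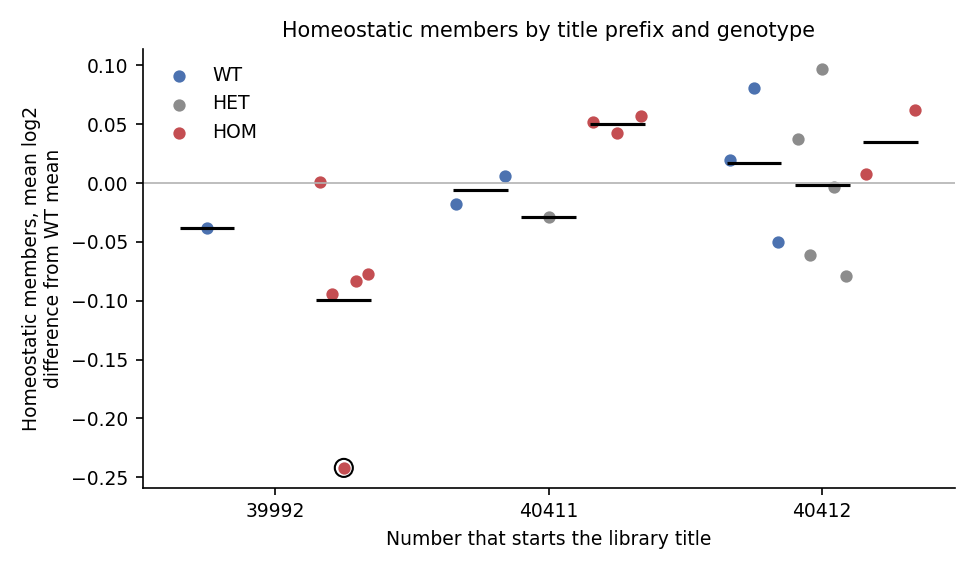
Homeostatic members, mean log2 difference from the WT mean, by the number that starts the library title and by genotype, 1 point per library and the mean as a line. Except for HOM 3, circled at -0.24, every library lies between -0.09 and 0.10, and the HOM mean lies below WT under 39992 and above it under the other numbers.

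The spread between libraries was compared by the coefficient of variation, the SD as a share of the mean. The median of the homeostatic members was 5.92% in WT, 8.91% in HET, 10.2% in HOM and 8.50% in HOM without HOM 3. For the 18 tested activation members it was 10.6%, 6.04%, 13.9% and 10.4% in the same order.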

How the data were processed

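The authors deposited 1 RSEM gene table per library, which gives for each Ensembl ID its expected count, TPM and FPKM, per the file headers. PolyA-selected RNA was sequenced as paired ends from stranded libraries, per the labels' protocols. Alignment with Bowtie2 2.2.0 and quantification with RSEM 1.2.12 are listed in the submitters' processing notes. The sources used here do not give the build, the annotation or whether strand was used. Symbols and positions came from GENCODE M21 (GRCm38) by Ensembl ID, which matched 37607 of 38924 IDs. RSEM divides reads that fit several genes, so 14.41% to 16.23% of the deposited expected counts per library were not whole, and these were rounded. The deposited TPM gave levels per length and an alternative test, and the deposited FPKM were not used.

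Libraries were grouped by the labelled genotype. Genes were filtered with filterByExpr, scaled by TMM and fitted over all 22 libraries together, with no covariate, in edgeR 4.0.16 (quasi-likelihood, robust; R 4.3.3), with a call where the p adjusted by Benjamini-Hochberg over all 16974 genes was below 0.05. The steps were tested on simulated data. Standard errors were derived from the F statistic, and CPM use the TMM-adjusted total with no prior count. Lists were not tested as sets and were described by counts, medians, ranges, per-library means and summed CPM. List levels used log2(CPM + 0.1). No libraries held identical values. Alternatives used DESeq2 1.42.0, limma 3.58.1 on log2(TPM + 1) or log2(TPM + 0.1), no TMM, no filter, only the groups compared, the title prefix as a covariate, and each library left out in turn. Full values were given for 16 set members and, in each comparison, the 3 homeostatic and 3 activation members with the smallest p, and from the further lists for the 2 genes with the smallest p and the receptor ligands. Other genes were named after their values were seen. The members and the lists were chosen with earlier results of these data known.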

Additional observations from a re-analysis of the deposited data

Results flagged for a closer look

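Of 117 gene-and-genotype groups checked among the members, 9 held a library whose gap to its nearest neighbour was large for the range of its group. Chance flags about 1 in 20 such groups. In 8 of the 9 the library was HOM 3, high among the 10 HOM libraries: Cybb at 13.7 CPM (next 1.05), Lyz2 at 95.2 (next 11.9), Cd9 at 160 (next 52.2), Ccl6 at 6.54 (next 2.09), Clec7a at 3.74 (next 1.13), Gpnmb at 3.28 (next 2.24), Itgax at 1.98 (next 1.13) and Lgals3 at 5.96 (next 3.78). All 8 are activation members, and HOM 3 was not outlying by this measure for any homeostatic member. The other was Lpl, lipoprotein lipase, at 11.3 CPM in WT 5, where the next WT library had 8.58.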

How the results depend on the processing

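No member was called in any comparison under any setting, and no adjusted p-value for a named member fell below 0.05 in 1710 recomputed values over 30 settings, of which 87 changed sign and 16 moved by more than the spread between replicates. In HOM against HET the activation median turned from 0.02 to -0.02 without HOM 3. With the title prefix as a covariate, the homeostatic median turned to 0.0364 in HOM against WT and to 0.0496 in HOM against HET. With HOM 3 also left out, a setting chosen after seeing the data, it was 0.0445 and 0.0573. The values within title number 39992 without HOM 3 were also added after seeing the data. The cause was not tested. Leaving out each library in turn gave homeostatic medians from -0.03 to 0.01 in HOM against WT, 0.00 to 0.04 in HET against WT and -0.05 to 0.00 in HOM against HET, and activation medians from 0.01 to 0.07, 0.02 to 0.06 and -0.02 to 0.03. Over all genes, DESeq2 called 28 genes in HOM against WT and 76 in HOM against HET, where edgeR called 16 and 18. In HOM against HET the count was 10 with the title prefix, 11 with log2(TPM + 1), 10 without HET 3, 11 without HOM 1 or HOM 4 and 39 without HOM 10. DESeq2 replaced the HOM 3 counts of Cybb (452 by 25) and Lyz2 (3130 by 292) before its test. No paired analysis was possible because the replicate numbers follow deposition order and pair no libraries. Levels below about 1 CPM, as for Itgax, Cst7, Ccl3 and Ccl4, rest on few counts.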
